A study of Mus musculus with 2 samples.

Results

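The phagocyte NADPH oxidase, its small GTPase Rac2 and the calgranulins S100a8 and S100a9 were measured in the prostate of ARR2PB-miR32 transgenic mice and of wild-type mice. The tissue label gives the ventral lobes, while the growth protocol also mentions dorsolateral ones. The 8 genes taken were Rac2, Rac1, Cyba, Cybb, Ncf1, Ncf4, S100a8 and S100a9, out of 31993 genes or unnamed accessions with a probe. They were chosen by gene symbol, with the transgenic over wild-type ratios of these same arrays already known, so their ratios describe them and support nothing further. Every non-control probe whose accession mapped to one of these symbols was taken, which gave 12 probes of 41174, and 10 of the 12 were detected, with at least 1 for each gene.

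The transgenic group was a pool of RNA from 6 mice that carry miR-32 behind the ARR2PB promoter, an engineered form of the probasin promoter that is active in prostate epithelium and depends on androgen. The wild-type group was a pool of RNA from 6 mice without the transgene. All mice were 6 months old and of the FVB/N strain, which the labels also spell FBV/N, and how many founder lines the transgenic pool drew on was not stated there. The same pair of pools was hybridised to 2 two-colour Agilent arrays, with the transgenic pool in Cy3 on array 1 and in Cy5 on array 2. Each genotype is therefore 1 sample, no significance test was possible, and each SD below (n = 2) is over technical arrays and holds nothing of the variation among mice. In a bulk extract, fewer cells of a type and less RNA per cell cannot be told apart.

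The transgene encodes a microRNA, a short RNA that binds messenger RNAs through the bases of its seed. The mature strands of mouse miR-32 are shown because they are the only designed difference between the pools. They are from RefSeq, GRCm38.p6, chr4:56895272-56895293 for the 5p strand and chr4:56895232-56895252 for the 3p strand, both on the minus strand, and the capitals mark the seed, bases 2 to 8.
mmu-miR-32-5p: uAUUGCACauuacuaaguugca
mmu-miR-32-3p: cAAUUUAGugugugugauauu

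The phagocyte oxidase makes superoxide from oxygen with electrons of NADPH, and neutrophils and macrophages use it to kill engulfed microbes. Its membrane core, cytochrome b558, is a pair of the catalytic chain gp91phox (Cybb) and the stabilising chain p22phox (Cyba). On activation cytosolic subunits, among them the organizer p47phox (Ncf1) and the regulator p40phox (Ncf4), move to the membrane together with a Rac GTPase, which is mainly Rac2 in blood cells and Rac1 in most other cells. S100a8 and S100a9 are calcium-binding proteins that pair as calprotectin, are abundant in neutrophils and monocytes, and can also be made by stimulated epithelium.

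The gland was identifiable on both arrays, since all 6 of 6 ventral prostate markers, among them Pbsn, Sbp, Msmb, Spink1 and Mmp7, and all 8 luminal markers were detected. Of the ventral markers 3 were nevertheless lower in the transgenic pool, Spink1 (-5.88 ± 0.21), Mmp7 (-2.44 ± 0.92) and Sbp (-1.35 ± 0.55, and -0.97 under median centring). A probe counted as detected where either pool's signal was well above background on array 1 and on array 2, and 13903 genes had such a probe. A gene was called lower or higher where the log2 ratio, transgenic over wild type, averaged 1 or more in size and both arrays showed a change of 1.5-fold or more that way. By that rule 491 of the 13903 genes, or 3.53%, were lower and 151, or 1.09%, were higher in the transgenic pool. The median log2 ratio of all detected genes was 0.01. Levels below are normalized intensities that include an offset of 50 added in background correction, so that values under about 100 lie near background, and they are compared only within a probe.

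Of the 8 genes, 5 were called lower in the transgenic pool (Rac2, Cyba, Cybb, Ncf4 and S100a9), 0 were called higher, and Rac1, Ncf1 and S100a8 were not called. This stands beside 3.53% of all detected genes, a share from the same contrast that the genes were known in when chosen. The log2 ratios of the 8 ran from -2.40 for S100a9 to 0.09 for Rac1, with a median of -1.31, and 7 of the 8 were below 0 on both arrays. Cybb, Ncf1, S100a8 and S100a9 passed the detection filter through the wild-type pool alone, since the transgenic pool was well above background for them in Cy3 on array 1 and not in Cy5 on array 2. The median local background was 26 on both arrays in Cy3, against 112.5 on array 1 and 116 on array 2 in Cy5, and its part in those readings was not tested.

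**Figure D1:**
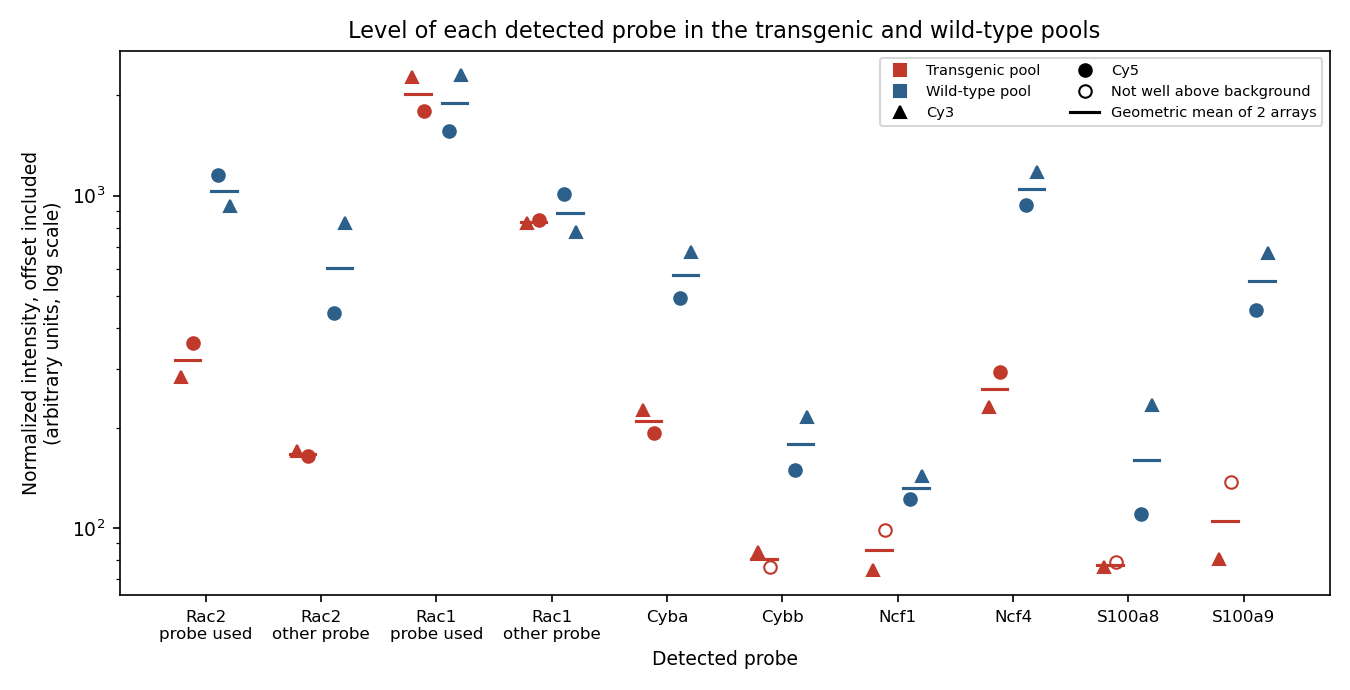
Normalized intensity (log axis, arbitrary units, offset of 50 included) of the 10 detected probes in the transgenic pool (left of each pair) and the wild-type pool (right), with triangles for Cy3, circles for Cy5, open symbols for readings not well above background and bars for the geometric mean of the 2 arrays. Every wild-type reading lies above every transgenic reading for each probe except those of Rac1, whose pools overlap.

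Rac2, the Rac GTPase of blood cells, was lower in the transgenic pool by both of its probes. The probe used, the brighter one, read 284 on array 1 and 359 on array 2 in the transgenic pool, against 1153 and 930 in the wild-type pool. Both transgenic readings lay below both wild-type readings, and all 4 were well above background. The log2 ratio was -2.02 on array 1 and -1.37 on array 2, or -1.70 ± 0.46 on average, which is 3.24-fold lower. The other probe read 170 and 164 in the transgenic pool, against 443 and 824 in the wild-type pool. It gave -1.38 and -2.33, with a mean of -1.85 ± 0.67, so the probes lay closer to each other than the arrays did, while array 1 gave the larger difference for the one probe and array 2 for the other.

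Rac1, the widely expressed Rac GTPase, showed no such difference. Its brighter probe read 2271 and 1796 in the transgenic pool, against 1560 and 2297 in the wild-type pool. The readings of the pools overlapped, and the dyes separated them better than the genotypes did, with the Cy3 readings of both pools (2271 and 2297) above the Cy5 readings (1796 and 1560). Its log2 ratio was 0.54 on array 1 and -0.36 on array 2, for a mean of 0.09 ± 0.63. The other probe read 825 and 844 in the transgenic pool, against 1010 and 779 in the wild-type pool, and gave a mean of -0.09 ± 0.29. The sign of so small a mean changed with the processing, at -0.08 with the scanner software's own ratios and 0.20 under median centring. Within each array the log2 ratio of Rac2 lay below that of Rac1, by -2.56 on array 1 and -1.02 on array 2, a mean difference of -1.79 ± 1.09. The genes are paralogs of similar sequence, and whether a probe of one also takes up RNA of the other was not tested.

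The membrane chains of the oxidase were both called lower. Cyba read 226 and 193 in the transgenic pool, against 490 and 674 in the wild-type pool, and all 4 readings were well above background. The pools did not overlap, and the log2 ratio was -1.12 on array 1 and -1.81 on array 2, with a mean of -1.46 ± 0.49, or 2.75-fold lower. Under median centring Cyba no longer passed the rule, because array 1 gave -0.31 there, although the mean was -1.45.

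Cybb, the catalytic chain, was dimmer. It read 84.7 and 76.4 in the transgenic pool, against 149 and 216 in the wild-type pool. The pools did not overlap, and the transgenic signal on array 2 was not well above background, with a spot signal of 123 against a local background of 131. The log2 ratio was -0.81 on array 1 and -1.50 on array 2, with a mean of -1.16 ± 0.49, or 2.23-fold lower. Cybb lay 0.30 above Cyba on array 1 and 0.31 above it on array 2 on the log2 ratio scale. Its call was lost without background subtraction (-0.85) and on array 1 alone (-0.81), while the scanner software's ratios gave -2.69. A second Cybb probe was not detected, with normalized readings of 81.2 and 84.1 in the transgenic pool and 65.6 and 87.3 in the wild-type pool.

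The promoters of the pair that forms cytochrome b558 are shown because both chains were called lower. Each runs from 250 bases before to 50 bases after the RefSeq start in GRCm38.p6. Of the 8 genes, 5 had an entry in the promoter table (S100a8, S100a9, Ncf1, Cyba and Cybb). Capitals mark matches on either strand to GAGGAA, the core of the box bound by PU.1, a transcription factor of myeloid and B cells. They also mark matches on either strand to TTNNGNAA, a loose form of the site of C/EBP factors. The same holds for TGANTCA, a loose form of the AP-1 site that allows any middle base. Matches to TATAAA (the TATA box) are marked on the plus strand within the 50 bases before the start.
Cyba promoter, chr8:122432891-122433190, minus strand: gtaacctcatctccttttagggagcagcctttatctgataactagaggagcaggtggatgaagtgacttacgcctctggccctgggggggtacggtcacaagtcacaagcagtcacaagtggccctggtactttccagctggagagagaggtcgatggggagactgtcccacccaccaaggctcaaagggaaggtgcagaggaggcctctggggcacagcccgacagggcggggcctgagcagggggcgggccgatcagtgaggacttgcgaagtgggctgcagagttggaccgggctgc
Cybb promoter, chrX:9469275-9469574, minus strand: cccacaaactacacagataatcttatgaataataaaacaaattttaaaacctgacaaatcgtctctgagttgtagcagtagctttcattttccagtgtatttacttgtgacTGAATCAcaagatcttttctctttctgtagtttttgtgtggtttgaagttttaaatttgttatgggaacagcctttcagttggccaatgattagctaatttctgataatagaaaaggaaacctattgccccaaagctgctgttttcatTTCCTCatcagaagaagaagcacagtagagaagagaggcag

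In these windows Cybb held a match to TGANTCA, with A as its middle base, that begins at position -139 from the start. It also held a match to GAGGAA on the opposite strand that begins at position 9. Cyba held a match to none of the 4 patterns (0 matches). A match is a run of letters and not a site shown to be bound, and its absence says only that the letters are not in the window. Of 32851 mouse promoters of the same length, 28.3% held GAGGAA and 7.81% held TGANTCA.

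Of the cytosolic subunits, Ncf4 had the most even difference with normexp and loess, though not with every processing. It read 231 and 295 in the transgenic pool, against 934 and 1177 in the wild-type pool, all well above background. The pools did not overlap, array 1 gave -2.01, and the mean of the arrays was -2.01 ± 0.01, or 4.02-fold lower. Under median centring the arrays gave -1.10 and -2.88 for Ncf4, and -0.83 and -0.67 for Ncf1.

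Ncf1, the organizer subunit, was not called. It read 74.6 and 98.3 in the transgenic pool, against 122 and 143 in the wild-type pool. The pools did not overlap, the wild-type readings were well above background on both arrays, and the transgenic reading on array 2 was not. The log2 ratio was -0.71 on array 1 and -0.54 on array 2, with a mean of -0.63 ± 0.12, or 1.54-fold lower. The scanner software's ratios put the same probe at -2.75 and -2.53, a mean of -2.64, which would pass the rule. A second Ncf1 probe was not detected, with readings of 90.0 and 78.0 in the transgenic pool and 95.4 and 103 in the wild-type pool.

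S100a9 had the lowest ratio of the 8 genes. It read 80.5 and 137 in the transgenic pool, against 453 and 673 in the wild-type pool. The pools did not overlap, and the transgenic reading on array 2 was not well above background. The log2 ratio was -2.49 on array 1 and -2.30 on array 2, with a mean of -2.40 ± 0.14, or 5.26-fold lower, a size that rests in part on that dim reading. With the scanner software's ratios it was -3.89, or 14.8-fold lower.

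S100a8, its partner, was not called. It read 76.1 and 79.2 in the transgenic pool, against 110 and 235 in the wild-type pool. The pools did not overlap, and in Cy5 on array 2 the transgenic spot signal of 107 lay below its local background of 114. The log2 ratio was -0.53 on array 1 and -1.57 on array 2, with a mean of -1.05 ± 0.73, so it passed the mean of 1 in size and missed 1.5-fold on array 1. Its mean changed with the processing, at -0.86 with no background subtraction, -1.63 with an offset of 16 and -3.17 with the scanner software's ratios. It passed the rule with the offset of 16, under median centring (-1.27) and with the scanner software's ratios. On array 2 alone it was at -1.57. In the same fit S100a8 lay above S100a9 by 1.97 on array 1 and 0.73 on array 2 on the log2 ratio scale.

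The promoters of the calgranulins, whose products pair in 1 complex, are shown with the capitals as above, since 1 of the pair was called and the other was not.
S100a8 promoter, chr3:90668821-90669120, plus strand: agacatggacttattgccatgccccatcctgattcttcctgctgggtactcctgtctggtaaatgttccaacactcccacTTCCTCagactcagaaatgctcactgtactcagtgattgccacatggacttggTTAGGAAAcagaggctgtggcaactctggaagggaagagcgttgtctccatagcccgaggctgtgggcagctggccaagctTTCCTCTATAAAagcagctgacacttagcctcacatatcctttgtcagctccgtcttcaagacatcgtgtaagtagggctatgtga
S100a9 promoter, chr3:90695672-90695971, minus strand: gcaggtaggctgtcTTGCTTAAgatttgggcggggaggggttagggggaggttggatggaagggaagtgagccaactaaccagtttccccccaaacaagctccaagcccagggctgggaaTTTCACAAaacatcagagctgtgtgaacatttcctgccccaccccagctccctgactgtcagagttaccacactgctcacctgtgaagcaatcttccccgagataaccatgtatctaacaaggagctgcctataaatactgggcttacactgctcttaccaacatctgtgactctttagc

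S100a8 held GAGGAA on the opposite strand in matches that begin at positions -170 and -36 from the start, TTNNGNAA at -117 and TATAAA at -30. The match at -36 ends where the TATA match begins, so the capitals run on. S100a9 held matches to TTNNGNAA on the opposite strand that begin at -236 and -130. The letters TATAAA also occur on the plus strand of S100a9, beginning at the RefSeq start. That is just past the 50 bases searched, so they are unmarked. TTNNGNAA was in 40.7% of the 32851 promoters and TATAAA, in that window and strand, in 2.73%. Of the 5 promoters in the table, 2 held GAGGAA (S100a8 and Cybb) and 2 held TTNNGNAA (S100a8 and S100a9), and Ncf1 held none of the 4 patterns (0 matches).

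**Figure D2:**
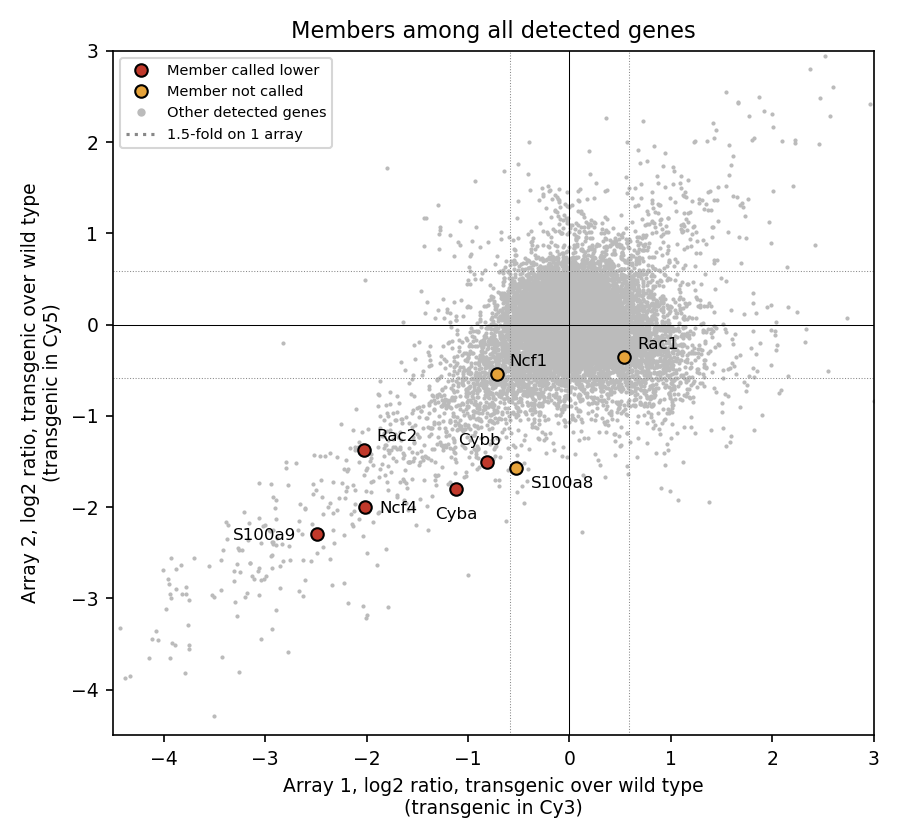
Log2 ratio of transgenic over wild type on array 1 (x axis) and array 2 (y axis) for all detected genes (grey) and the 8 genes (red where called lower, orange where not), with dotted lines at 1.5-fold on each array. All but Rac1 lie below 0 on both arrays, and S100a8 and Ncf1 miss the 1.5-fold line on 1 array each. The axes run from -4.5 to 3, and 26 genes lie outside them.

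The median SD of the 2 arrays was 0.47 over the 8 genes, against 0.24 over all detected genes. Ncf4 (0.01), Ncf1 (0.12) and S100a9 (0.14) lay under 0.24. Rac2, Ncf1 and S100a9 lay lower on array 1, Rac1, Cyba, Cybb and S100a8 lay lower on array 2, and Ncf4 was level. Among detected genes outside the group, those with the array ratios nearest to Rac2 (-2.02 and -1.37), by Euclidean distance over the 2 arrays, were Cytip (-1.99 and -1.34), Gimap6 (-2.08 and -1.35), Lpxn (-1.95 and -1.41), Dnajc10 (-2.12 and -1.37) and Tbc1d10c (-2.08 and -1.28). Nearest to S100a9 (-2.49 and -2.30) were Fcmr (-2.45 and -2.27), Ubd (-2.54 and -2.18), Arhgdib (-2.63 and -2.30), Ibsp (-2.33 and -2.25) and Ccl20 (-2.49 and -2.51). With 2 technical values this likeness is a description of the ratios alone.

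Other genes of the NADPH oxidases included calls in the same direction. Hvcn1, the proton channel that balances charge while the oxidase works, was called lower at -1.61 ± 0.61. So was Noxo1, the counterpart of p47phox that organises Nox1 in colon epithelium, which read 380 and 351 in the transgenic pool, against 1958 and 2082 in the wild-type pool, or -2.47 ± 0.14. Nox1, Nox3, Nox4 and Duox1 were not detected.

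Genes that work with Rac2 were called lower in a minority of cases. Of 12 detected Rac regulators 3 were lower: Arhgdib, the GDP dissociation inhibitor of blood cells, at -2.47 ± 0.24, Arhgap25, a Rac GTPase-activating protein of leukocytes, at -1.70 ± 0.04, and Vav1, the exchange factor of blood cells, at -1.07 ± 0.19. A second Vav1 probe gave -0.58. Arhgap25 and Vav1 passed detection through the wild-type pool alone. With detection required in both pools 1 Rac regulator was lower, and likewise 1 among the deposited log2 values. Rac3, the Rac GTPase found mainly in brain, was not called at 0.02 ± 0.47. Of 10 detected Rac effectors and oxidase kinases 3 were lower, namely Nckap1l, a subunit of the WAVE complex in blood cells, at -1.73 ± 0.34, the kinase subunit Pik3cd at -1.11 ± 0.05, and Was, the actin regulator of Wiskott-Aldrich syndrome, at -1.04 ± 0.18 with -0.75 by its other probe. The medians were -0.12 for the regulators and -0.24 for the effectors and kinases, and 0 of their genes were higher.

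The other S100 proteins were not called in either direction (0 of 9 detected), with a median of 0.10. S100a4, found in fibroblasts and leukocytes, came nearest at -0.98 ± 0.26, with readings of 4568 and 5109 in the transgenic pool, against 10204 and 8839 in the wild-type pool. S100a6 was at -0.92 ± 0.13. Among receptors described for the calgranulins, Cd14, the co-receptor of Tlr4, was the 1 lower gene of 6 at -1.11 ± 0.51. The Cd14 call was lost under median centring and on array 1 alone (-0.75). Tlr4 stood at 0.09 ± 0.22 and Ager, the receptor RAGE, was not detected. Of 8 detected genes for phagocytic receptors and their signalling partners 4 were lower, with a median of -0.96 over the 8. Fcer1g, the shared Fc receptor chain, was at -1.62 ± 0.10 and the kinase Syk at -1.60 ± 0.20. The adaptor Tyrobp was at -1.51 ± 0.04 and the inhibitory receptor Fcgr2b at -1.07 ± 0.10. The other detected genes of the list, for Fc receptors and integrin chains, were not called. Syk and Fcgr2b passed detection through the wild-type pool alone. The count was 2 under median centring and 8 with the scanner software's ratios. With detection required in both pools only Fcer1g and Tyrobp were measured, and these 2 were lower. Of 12 enzymes that remove superoxide and peroxide, 0 were lower and 0 higher, with a median of 0.11 and a range of -0.35 to 0.69.

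**Figure D3:**
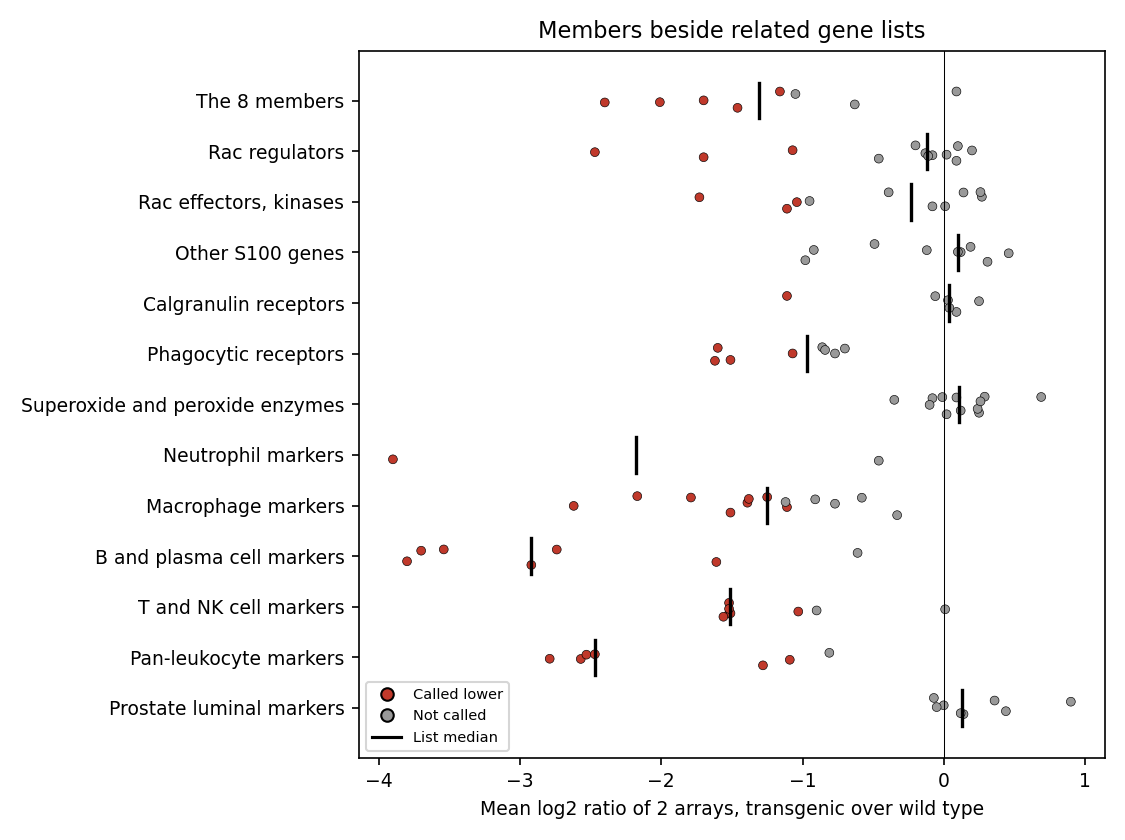
Mean log2 ratio of the 2 arrays, transgenic over wild type (x axis), for the 8 genes, related lists and marker lists (rows), with red points for genes called lower, grey for those not called and a black bar at each median. The medians are -1.31 for the 8 genes, -1.25 for macrophage markers, -2.47 for pan-leukocyte markers and -2.92 for B and plasma cell markers. With the scanner software's ratios they are -2.52, -1.79, -2.92 and -3.70 in that order.

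Markers of leukocytes moved with these genes. Of 7 pan-leukocyte markers 6 were lower, with a median of -2.47, among them Cd52 (-2.79 ± 0.18), the leukocyte phosphatase Ptprc (-2.57 ± 0.03, but no lower than -1.12 by its 2 other probes), Coro1a (-2.53 ± 0.43) and Arhgdib. The list's median was -1.56 with the mean of each gene's detected probes. With detection required in both pools only Cd52, Coro1a, Arhgdib and Lcp1 were measured, and 3 were lower, all but Lcp1. The summed level of the 7 markers was 3079 and 3318 in the transgenic pool, against 12581 and 13672 in the wild-type pool. Of 13 detected macrophage markers of 15, 8 were lower with a median of -1.25. They were led by Ctss (-2.62 ± 0.61), Lyz2 (-2.17 ± 0.05), Aif1 (-1.79 ± 0.40, with -1.02 by its other probe) and Mpeg1 (-1.51 ± 0.27, with 0.19 by its other probe). The count of lower macrophage markers was 5 under median centring and 11 with the scanner software's ratios. The sum of the 13 was 4599 and 4925 in the transgenic pool, against 13709 and 16238 in the wild-type pool. Of 7 detected B and plasma cell markers 6 were lower with a median of -2.92. They were led by Cd79b (-3.80 ± 0.20), Ms4a1 (-3.70 ± 0.30), Jchain (-3.54 ± 0.15, with -5.98 by its other probe) and Pou2af1 (-2.92 ± 0.17). The sum of the 7 was 2119 and 2374 in the transgenic pool, against 22020 and 25020 in the wild-type pool. With detection required in both pools only Cd79b, Jchain and Mzb1 were measured, and all 3 were lower. T and NK cell markers were lower in 6 of 8, with a median of -1.51. Among them were Cd3d (-1.52 ± 0.03), Cd5 (-1.52 ± 0.37) and Nkg7 (-1.52 ± 0.17, with -0.31 by its other probe). Cd3d and Cd5 passed detection through the wild-type pool alone. Icos was at least 2.95-fold lower by the probe used, with neither transgenic reading well above background, and at -0.78 by its other probe. The list's sums were 798 and 1125 in the transgenic pool, against 2123 and 2406 in the wild-type pool. With detection required in both pools only Nkg7 and Cd3e of this list were measured. Nkg7 was the 1 lower gene, and Cd3e was not called at 0.01 ± 0.53. The median of -0.76 is the midpoint of their ratios.

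Neutrophil markers were nearly all dim. Only Ltf and Mmp9 of 14 were detected, and the defining granule and receptor genes Elane, Mpo, Ngp, Camp, Cxcr2, Csf3r, Fpr1, Mmp8, Retnlg, Prtn3 and Itgam were not detected in either pool. Ltf, lactoferrin, which glandular epithelium also makes, was at -3.90 ± 0.56 and Mmp9 at -0.46 ± 0.17, and the sum of the 2 was 792 and 844 in the transgenic pool, against 8129 and 14668 in the wild-type pool. No probe matched Ly6g. Mast cell markers were not detected (0 of 5 with a probe). Of 5 detected squamous markers 0 were lower and 0 higher, with a median of 0.11 and sums of 2338 and 2306 in the transgenic pool, against 2486 and 1815 in the wild-type pool. Luminal markers had a median of 0.13, with 0 of 8 called and sums of 80571 and 96529 in the transgenic pool, against 87359 and 75477 in the wild-type pool. Fibroblast markers were lower in 2 of 6 genes, Col3a1 (-1.11 ± 0.05) and Lum (-1.11 ± 0.09), with a median of -0.91 and 5 of the 6 below 0 on both arrays. The count of lower fibroblast markers was 0 under median centring and 5 among the deposited log2 values. The sum of the 6 was 14052 and 8466 in the transgenic pool, against 14566 and 34647 in the wild-type pool. Most of each sum was Dcn, which was not called, at 0.13 on array 1 and -2.27 on array 2. The part of the leukocyte and fibroblast markers in the ratios of the 8 genes was not tested.

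**Figure D4:**
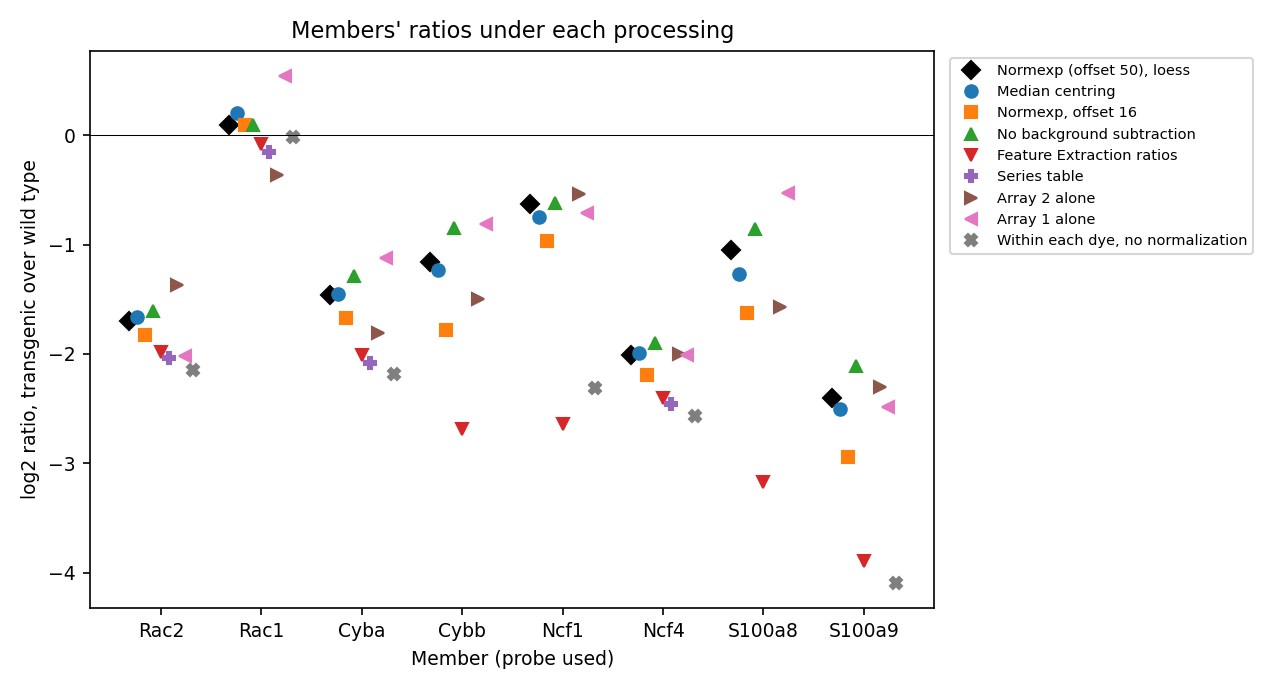
Log2 ratio of transgenic over wild type (y axis) for each of the 8 genes (x axis) under the processing alternatives (symbols). Ratios of Rac2, Cyba and Ncf4 stay between -1.12 and -2.57, those of Cybb, Ncf1, S100a8 and S100a9 spread further, and Rac1 lies on both sides of 0.

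The processing moved the dim genes more than the bright ones. Between normexp with loess and the scanner software's ratios, the mean log2 ratio went further below 0 for Rac2 (-1.98), Cyba (-2.01), Ncf4 (-2.40), Cybb, Ncf1, S100a8 and S100a9, and with those ratios 7 of the 8 genes passed the rule, beside 6.75% of all detected genes called lower there. The series table of the authors' deposited log2 values held Rac1, Rac2, Cyba and Ncf4 and no probe of the other 4. In it Rac2 stood at -2.04, or -2.77 by its other probe, Cyba at -2.08 and Ncf4 at -2.46, so that 3 of 4 passed.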

How the data were processed

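RNA of the 2 pools (6 mice each, 100 ng labelled) was compared on 2 dye-swapped arrays. Per the file headers, Agilent Feature Extraction (version 11.0.1.1) read the images, and the deposited scanner files give median intensity of spot and local background with no normalization, processed intensities, and a log10 ratio of Cy5 over Cy3. The authors' deposited series table holds log2 values for 15511 probes, whose filter and centring are not given in the sources used here. They correlated at r = 1.000 with the scanner ratios turned to transgenic over wild type, with column medians of 0.

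With limma 3.58.1 (R 4.3.3), normexp background correction (offset 50) was followed by loess within each array, with 1639 control spots and outlier spots (448 on array 1, 299 on array 2) at weight 0, and 0 spots were saturated. The design named mean signals, and medians were used because the files carry those. Levels are per channel after loess and Aquantile. Spots of a probe were averaged, arrays were turned to transgenic over wild type and averaged, and each gene is its brightest detected probe. Symbols came from RefSeq (GRCm38.p6) by accession for 27816 of 41174 probes. The number of arrays limits the precision.

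Members and lists were chosen with earlier results of these data known. Some listed genes are not reported here. Text names the 8 genes, the called genes of each list (at most 6, or 4 for markers) and a fixed few others. Alternatives changed the background correction, offset, normalization, detection filter, probe rule, thresholds and arrays used, and a comparison within each dye was added after seeing the data. The procedure was tested on simulated data.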

Additional observations from a re-analysis of the deposited data

How the results depend on the processing

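Each gene of the 8 that was called lower kept its direction under each alternative that measured it. With detection required in both pools, 3 of 4 measured genes were called lower (2.22% of all genes there), and likewise 3 of 4 among the deposited log2 values (3.45%), because Cybb, Ncf1, S100a8 and S100a9 dropped out. The median of the 8 was -1.73 with an offset of 16, -2.52 with the scanner software's ratios and -2.06 over the 4 in the series table. On array 1 alone 4 of the 8 passed 2-fold (4.31% of all genes) and on array 2 alone 6 (4.24%). Over all detected genes, 99 were higher under median centring, 309 higher and 939 lower with the scanner software's ratios, 250 and 764 at 1.5-fold on each array with no condition on the mean, and 267 lower with detection in both pools. Leaving out 1 array gave 271 and 450 higher genes. The cause of these shifts was not tested. Of 78 recomputed ratios of the 8 genes, 20 moved by at least the gene's own SD of the arrays. That SD was 0.01 for Ncf4, for which -1.99 counted as moved. It was 0.73 for S100a8, for which -1.63 did not. In the lists 36 counts moved by more than 1.5 times or between 0 and another count, while 468 did not. Many of the 468 were 0 in both settings, where little could move, so these totals do not measure stability. Low signal over background limits the values of Cybb, Ncf1, S100a8 and S100a9.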

Other observations

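Signals of the same dye can also be set side by side across the arrays with no normalization, a comparison chosen after seeing the data. Spot signal minus local background of S100a9 was 45 in the transgenic pool, against 1082 in the wild-type pool, in Cy3, or 24.0-fold lower. In Cy5 it was 22 in the transgenic pool, which was not well above background, against 264.5 in the wild-type pool. For Ncf4 the transgenic pool was 7.71-fold lower in Cy3 and 4.59-fold lower in Cy5, for Cyba 4.52-fold and 4.56-fold, and for Rac2 4.64-fold and 4.23-fold by the probe used and 8.26-fold and 6.22-fold by the other. S100a8 was 13.8-fold, Cybb 6.91-fold and Ncf1 6.60-fold lower in Cy3, and in Cy5 their transgenic signals were not well above background, so no ratio is given. Rac1 served as the bright gene for scale. Its transgenic signal was 1.24-fold lower in Cy3 and, in Cy5, 1043.5 against 870 in the wild-type pool. Arrays were not scaled to each other here, and these folds carry the error of single spots.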
